A study of Mus musculus with 6 samples.

Results

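The cells described here are those that the annotation of neurons of the olfactory bulb calls n13-AstrocyteLike, abbreviated n13. They were taken by that name alone and numbered 2950 of the 21746 cells with 1 of 18 neuronal types, and of 51426 annotated cells in all. RNA of single cells from dissociated mouse olfactory bulbs was measured in 6 libraries, 2 for each of 3 conditions. All mice were of the strain C57BL/6NJ and 14 weeks old, and each library pooled 3 mice. Control mice were naive, naris occluded mice had 1 nostril closed for 6 weeks and gave the deprived bulb, and trained mice spent 6 weeks on an odour discrimination task. Replicate 1 of each condition came from male and replicate 2 from female mice, so that replicate number and sex cannot be told apart. Per the labels, brains were taken out with adjoining tissue to keep the front of the bulb, and some cells of the olfactory epithelium are included.

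Astrocytes clear glutamate and GABA from the synapse, buffer potassium and supply neurons with metabolites, and are recognised by their transporters, the water channel Aqp4 and the filament protein Gfap. The bulb receives the axons of olfactory sensory neurons from the nose and holds mitral and tufted cells, which send the odour signal onward, and a large majority of inhibitory granule and periglomerular cells, some of them added throughout adult life. A cluster with astrocyte genes among neurons may be examined by asking which further genes its cells hold, how deep the cells are and whether the genes occur at the level of the glial cluster they are known from.

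Control libraries 1 and 2 held 664 and 414 n13 cells, occluded libraries 252 and 201, and trained libraries 1202 and 217. Trained library 1 thus gave 40.7% of all n13 cells. In the earlier clustering of the whole bulb, 2676 of the n13 cells (90.7%) belonged to neuronal cluster N6, 171 (5.80%) to N5 and 103 to other neuronal clusters. N6 itself held 3068 cells, 87.2% of which were n13. The study drew its neuronal types from whole-bulb neuronal clusters only, so none could come from the 3 astrocyte clusters Astro1, Astro2 and Astro3. These held 3130, 336 and 1780 cells. Cluster names here are those of the deposited annotation. By cluster size, the study's own listing exchanges the names Astro2 and Astro3, MicroG1 and MicroG2, OEC2 and OEC5, OEC3 and OEC4, and Mes1 and Mes2, and numbers the whole-bulb neuronal clusters in another order. A barcode sequence shared with another library was carried by 166 n13 cells (5.63%) and by 2956 of all annotated cells (5.75%), and 5 such sequences marked n13 cells in both libraries.

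n13 cells were shallow and rich in mitochondrial RNA. A unique molecular identifier (UMI) marks 1 captured RNA molecule. The cells held 519 to 2666 UMIs with a median of 656, and a median of 366 genes, and 129 cells reached 1000 UMIs. This was the lowest median depth of the 18 neuronal types, followed by n14-GC-7, a granule cell cluster, with 690 and n06-Transition with 730. Mitochondrial UMIs made up 3.31% to 59.96% of a cell with a median of 30.5%, second to the olfactory sensory neuron cluster n01-OSNs with 39.0% and next to n14-GC-7 with 29.7%. n06-Transition, close to n13 in depth, stood at 15.2%. Among the astrocyte clusters, Astro3 had 708.5 UMIs and 23.6% mitochondrial UMIs, and Astro1 had 1851.5 UMIs and 11.1%. The low depth and high mitochondrial share held in every library, with medians of 689 and 646 UMIs in control, 766.5 and 581 in occluded and 630 and 640 in trained, and of 31.0% and 31.9%, 26.9% and 27.2%, and 30.7% and 29.99% mitochondrial UMIs.

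**Figure D1:**
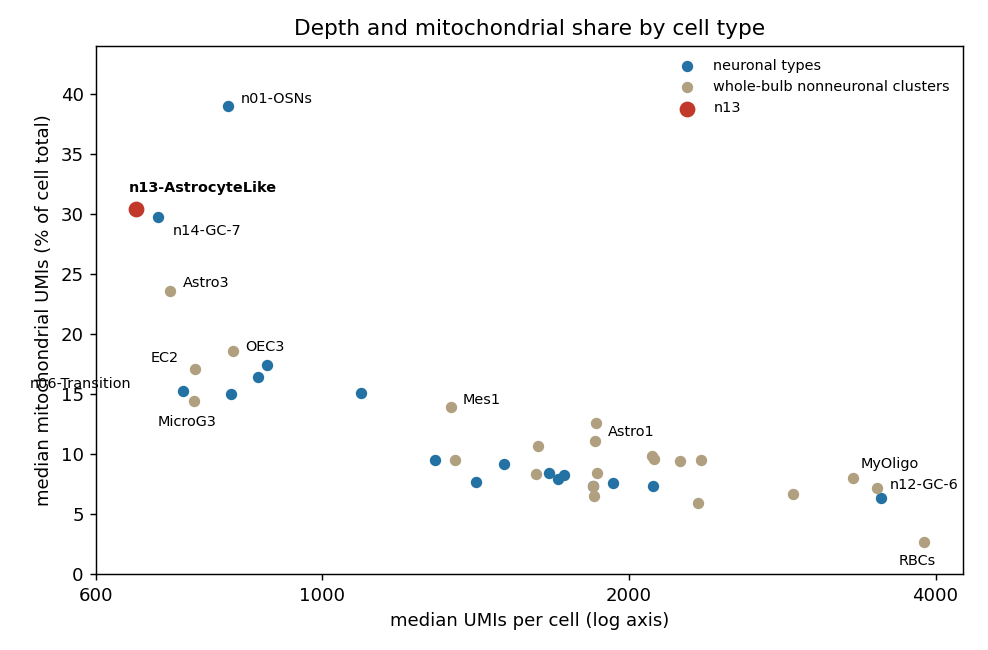
Median UMIs per cell (horizontal, log axis) against the median mitochondrial share of the cell (vertical, % of UMIs), 1 point for each of the 18 neuronal types and 22 nonneuronal clusters. n13 (red) lies at 656 UMIs and 30.5%, next to n14-GC-7, with n01-OSNs above it and Astro3 to its lower right.

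To describe the genes of n13, UMIs were summed over the cells of each type in each library and expressed as CPM, the UMIs of a gene scaled to the same total of UMIs in every type and library. No correction for gene length was made since the assay counts 3′ ends. The log2 ratio of n13 to the median of the other 17 neuronal types was taken in each library with 1 CPM added. The clusters were made from these same genes, so the levels are a description and carry no test. Of 8916 genes at 10 CPM or more, 807 (9.05%) were above that median in all 6 libraries and 3075 (34.5%) below it in all 6, and the median log2 ratio of all genes was -0.53. With mitochondrial genes left out of the total this median was -0.22, so each ratio is to be read against them. At 100 CPM or more, 110 genes had a log2 ratio of at least 1 and the same sign in all 6 libraries, a count that became 236 with mitochondrial genes left out of the total and 34 against the 4 types nearest to n13 in depth. These 4 types were n14-GC-7, n06-Transition, n01-OSNs and n18-EPL-IN, with medians of 690, 730, 808.5 and 813 UMIs.

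The genes with the highest ratios belonged to several unrelated cell classes. S100b, a calcium-binding protein of glia, was at 723 and 910 CPM in control, 733 and 842 in occluded and 703 and 848 in trained libraries. Its mean of 793 ± 84.6 CPM (SD, n = 6 libraries) stood against 158 in the median type, a log2 ratio of 2.33. Mbp, a main protein of the myelin sheath, was at 3860 and 5023 CPM in control, 4664 and 5140 in occluded and 4115 and 5606 in trained libraries, a mean of 4735 ± 657 against 975 and a log2 ratio of 2.29. For both genes the conditions overlapped. Gng13, a G protein subunit of olfactory signalling, was at 2122 ± 345 CPM and S100a5, a calcium-binding protein of olfactory sensory neurons, at 2393 ± 1142 CPM, against 450 and 528. Gfap, the astrocyte filament, reached 134 ± 29.5 CPM against 27.5. Mobp, another myelin protein, was at 790 CPM, Fabp7, a fatty acid carrier of glia, at 2474 CPM, Ptgds, a prostaglandin synthase of the meninges, at 2262 CPM and Aldoc, an astrocyte glycolytic enzyme, at 878 CPM. In cells of at least 1000 UMIs the log2 ratio of S100a5 was 0.59 in place of 2.24 and that of Ptgds 0.45 in place of 2.05, while S100b stayed at 2.34. Against the 4 types nearest in depth the ratios of S100b, Mbp, S100a5 and Gfap were 1.27, 1.37, 0.99 and 0.85. These types include n01-OSNs, where S100a5 was at 20491 CPM and Gfap at 113 CPM. The other 6 of the 15 highest genes were Pla2g16, Bcas1, Plekhb1, Acsbg1, Doc2g and S100a13.

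In all, 9 genes (0.101%) exceeded every other neuronal type in all 6 libraries. They were S100b, Mbp, Mobp, the lipid carrier Dbi, the ferritin heavy chain Fth1, the metallothionein Mt3, the peroxidase Prdx1, Ndrg2 and Gng5. The next highest neuronal type was n14-GC-7 for 7 of them, n01-OSNs for Fth1 and n06-Transition for Ndrg2. Each of the 9 was higher still in a nonneuronal cluster, among them Dbi at 2487 CPM in n13 and 10599 in Astro2, and Fth1 at 5815 CPM in n13 and 23619 in myelinating oligodendrocytes (MyOligo).

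The opposite end of the ranking was led by noncoding RNAs, several of which stay in the nucleus. Malat1, a nuclear long noncoding RNA, was at 3680 and 3589 CPM in control, 2893 and 6801 in occluded and 3052 and 3713 in trained libraries. Its mean of 3955 ± 1436 CPM stood against 54369 in the median type, a log2 ratio of -3.84. Occluded library 2 was the highest, and of the other types only n01-OSNs had a lower mean, at 2030 CPM. Meg3, a long noncoding RNA of neurons, was at 247 ± 30.2 CPM against 3579, and Snhg11 at 157 ± 24.5 CPM against 1964. Kcnq1ot1, an antisense noncoding RNA, was at 16.8 CPM against 250, and Mir124a-1hg, the host transcript of a neuronal microRNA, at 12.9 CPM against 189. Against the 4 types nearest in depth the log2 ratios were smaller, at -0.88 for Malat1, -1.58 for Meg3, -1.32 for Snhg11 and -1.97 for Kcnq1ot1, and 1 of the 15 lowest genes, Gm26699, turned to 0.16. Of these types n14-GC-7, n01-OSNs and n18-EPL-IN were low in Malat1 too, at 6777, 2030 and 8282 CPM, whereas n06-Transition was at 57577. The part of depth in these ratios was not tested. The other 10 of the 15 lowest genes were 5330434G04Rik, Gm26699, Igf2bp3, Ogt, Lrp1b, Ttc14, Pnisr, Rbm4b, Pabpn1 and Slc25a36, of which Pnisr, Rbm4b and Pabpn1 encode RNA processing proteins.

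The astrocyte list held 20 genes. Of these, 17 were above the median of the other neuronal types in all 6 libraries, and none was below in all 6 or exceeded every other type. A gene can reach 10 CPM through n13 alone, where it is high, so the members that reach it in the median type itself are given too. Among astrocyte genes 14 of 15 were above, beside 570 of 8360 genes (6.82%) overall. In cells of at least 1000 UMIs, of which n13 had 129, 6 genes were above in all 6 libraries. The list summed to 4015 and 4010 CPM in control, 4476 and 5132 in occluded and 3829 and 3948 in trained libraries. The mean of 4235 ± 492 CPM stood against 1683 in the median type, with a range over the other types from 673 in n12-GC-6 to 2882 in n14-GC-7, and n13 ranked first of 18. The sum was 31197 ± 1297 CPM in Astro1, 11719 ± 1104 in Astro2 and 17304 ± 1257 in Astro3. In 4 genes the level came closest to that of Astro1. Agt, the precursor of angiotensin, was at 74.7% of its Astro1 level, Gfap at 52.8%, the glutamine synthetase Glul at 38.8% and Aldoc at 30.5%. In n14-GC-7 the same genes stood at 59.5%, 33.5%, 23.7% and 16.3%, and in n01-OSNs Gfap was at 113 CPM. For Gfap, Astro1 was the lowest of the astrocyte clusters, at 254 CPM beside 908 in Astro2, 418 in Astro3 and 134 in n13. The folate enzyme Aldh1l1 and the glutamate transporter Slc1a2 followed at 18.1% and 16.9%. Several membrane proteins that define astrocytes were lower, with the glutamate transporter Slc1a3 at 178 ± 38.2 CPM in n13 and 3492 in Astro1, the GABA transporter Slc6a11 at 154 ± 19.4 and 3113, the gap junction protein Gja1 at 141 ± 21.1 and 2061, and Aqp4 at 59.8 ± 32.9 and 1004. The median gene of the list stood at 7.75% of its Astro1 level in n13 and at 3.33% in the other neuronal types. By sum, astrocyte genes in n13 were thus above every other neuronal type and at 13.6% of the level of Astro1.

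The same picture was seen cell by cell. Each cell was thinned to 500 UMIs to put cells of different depth on 1 scale. An n13 cell then held 2.02 UMIs of the astrocyte list on average, against 1.38 in n14-GC-7, 8.53 in Astro3 and 15.6 in Astro1. The list was undetected in 18.6% of n13 cells, and 266 cells (9.02%) held 5 UMIs or more. Only 3 of the 2950 cells reached 10 UMIs, whereas 2821 of 3130 Astro1 cells did. Slc6a11 was seen in 7.46% of thinned n13 cells, 6.63% of n14-GC-7 cells and 74.2% of Astro1 cells, and Aqp4 in 2.68%, 2.50% and 34.6%, at median depths before thinning of 656, 690 and 1851.5 UMIs. In MicroG3, a shallow microglial cluster with 748 UMIs that should lack both genes, the shares were 4.42% and 1.37%. For both genes the share in n13 was thus close to that of a granule cell cluster. Gfap was seen in 5.05% of n13 cells, 3.39% of n14-GC-7 cells and 4.50% of n01-OSNs cells, and Aldoc in 31.7%, 20.5% and 15.1%, with 3.05% and 16.1% in MicroG3.

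Genes of the myelin sheath followed the astrocyte list. Of 12 myelin genes, 8 were above the median type in all 6 libraries and the other 4 in 5 libraries, beside 9.05% of all genes above in all 6. All 5 genes with 10 CPM in the median type were above in all 6, beside 6.82% of all such genes. The list summed to 6370 ± 938 CPM against 1432, 680 to 3201 over the other types and 65939 in MyOligo. Mbp and Mobp made up most of it, at 50.2% and 22.9% of their MyOligo levels. The remaining genes were much lower, with Opalin at 0.358% and the list's median at 0.909%. The ratio of Mbp to Cnp, an enzyme of the myelin membrane, was 58.3 ± 16.1 in n13 and 1.81 ± 0.206 in MyOligo. It was 58.1 ± 41.3 in n01-OSNs, 51.5 ± 15.0 in n14-GC-7 and 30.5 ± 15.6 in MicroG3, each overlapping n13 over the libraries. Mbp was detected in 70.6% of thinned n13 cells, 52.6% of n14-GC-7 cells, 45.5% of MicroG3 cells and 28.2% of Astro1 cells.

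Genes of several other classes were also higher in sum than in the median type. Among these, n13 ranked 1 of 18 only for ensheathing and mesenchymal genes, with n18-EPL-IN next at 5825 and 1563 CPM. Another type was highest for microglial (n17-M/TC-3, 1008 CPM), endothelial (n15-M/TC-1, 1121 CPM), mural (n15-M/TC-1, 295 CPM) and red blood cell genes (n11-GC-5, 894 CPM). Of the 12 olfactory ensheathing glia genes, 10 were above the median type in all 6 libraries, 8 of them among the 9 with 10 CPM in that type, and the sum was 6453 ± 1550 CPM against 1988 and against 56792 in the ensheathing cluster OEC4. Microglial genes gave 9 of 12 above (6 of 7 with 10 CPM in the median type) and 648 ± 162 CPM against 318, with 53513 in MicroG2, where the list's median gene in n13 was 1.09% of the MicroG2 level. Endothelial genes gave 4 of 10 above (3 of 6) and 491 CPM against 285, and mural genes 3 of 10 (2 of 2) and 268 CPM against 104. Red blood cell genes gave 4 of 5 (4 of 4) and 330 CPM against 142. Mesenchymal genes gave 2 of 8 (1 of 1) and 2299 CPM against 554, nearly all Ptgds, which was also at 18550 CPM in MyOligo. These counts stand beside 9.05% of all genes above, or 6.82% of those with 10 CPM in the median type. The oligodendrocyte precursor list had members on both sides (2 of 10 above and 1 below, 156 CPM against 117). So did the lists of stem and dividing cells (3 of 10 above and 1 below, 261 CPM against 188) and of mitral and tufted cells (1 of 10 above and 1 below, 294 CPM against 255). The collagen Col3a1, the mitral cell factors Lhx5 and Lhx1, the cell cycle kinase Cdk1 and the channel subunit Cnga4 were listed at 0 of 2072106 n13 UMIs, which allows up to 1.45 CPM for 3 counts and for counting error only. The share of these other classes in the level of any gene of n13 was not tested.

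Neuronal genes were present at a lower level than in most neuronal types. Of 16 pan-neuronal genes, none was above the median type in all 6 libraries and 9 were below in all 6, beside 34.5% of all genes. They summed to 3832 ± 253 CPM against 10804, rank 17 of 18 above n01-OSNs with 2143, and against 1377 in Astro1 and 2209 in Astro3. Syt1, the calcium sensor of vesicle release, was at 317 ± 65.3 CPM against 1116, and Stmn3 at 428 against 916, whereas Snap25, the vesicle fusion protein, was at 882 ± 149 CPM against 1066. Inhibitory interneuron genes summed to 2272 ± 175 CPM against 4580, with none of 14 above and 9 below in all 6 libraries beside the same 34.5%, and against 645 in Astro1 and 1209 in Astro3. Among them Gad1, which makes GABA, was at 676 ± 170 CPM against 129 in Astro1, and Meis2 at 536 ± 69.6 against 183. Immature neuron genes summed to 1089 ± 88.6 CPM against 1526, and 3 of 10 were below in all 6 libraries, a share near the 34.5% of all genes. n13 thus lay between the median neuronal type and the astrocyte clusters for both the pan-neuronal and the inhibitory lists.

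**Figure D2:**
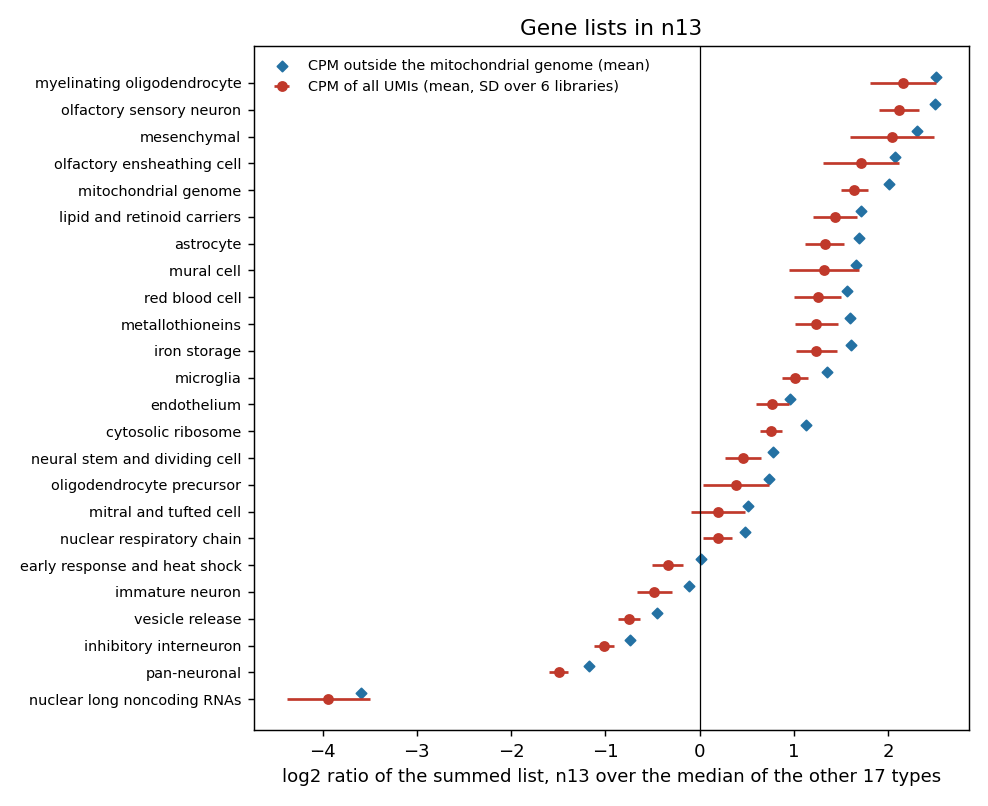
Log2 ratio of the summed CPM of each gene list in n13 to the median of the other 17 neuronal types (horizontal), with red points and bars for the mean and SD over 6 libraries and blue diamonds for CPM outside the mitochondrial genome. Lists of glia, vessels and olfactory sensory neurons lie to the right of 0 and the pan-neuronal, inhibitory and nuclear noncoding RNA lists to the left, the last at -3.94.

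Olfactory sensory neuron genes were, in sum, higher in n13 than in all other types but n01-OSNs. The list summed to 4680 ± 1410 CPM against 1083 in the median type, second to n01-OSNs with 40174. Of its 12 genes 4, S100a5, Gng13, Omp and Stoml3, were above the median type in all 6 libraries, beside 9.05% of all genes. All 4 were among the 8 with 10 CPM in that type, beside 6.82% of all such genes. Gng13 and S100a5 carried nearly the whole sum. The olfactory marker protein Omp was at 62.7 ± 16.9 CPM against 20.3 and 726 in n01-OSNs, and Stoml3 at 35.9 ± 7.03 CPM against 11.6 and 417. Adcy3, the cyclase of the odour response, was at 7.50 CPM and below the median type in all 6 libraries. It was low in n01-OSNs too, at 10.2 CPM, with the median of the remaining types at 197% of that level. The channel subunit Cnga2 of the odour response was at 1.86 CPM in n13 and 15.6 in n01-OSNs. The ratio of Gng13 to Omp was 35.7 ± 10.1 in n13 and 25.4 ± 5.03 in n01-OSNs, which overlapped. Gng13 was detected in 56.7% of thinned n13 cells, 97.5% of n01-OSNs cells, 41.4% of n14-GC-7 cells, 35.4% of MicroG3 cells and 16.3% of Astro1 cells.

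**Figure D3:**
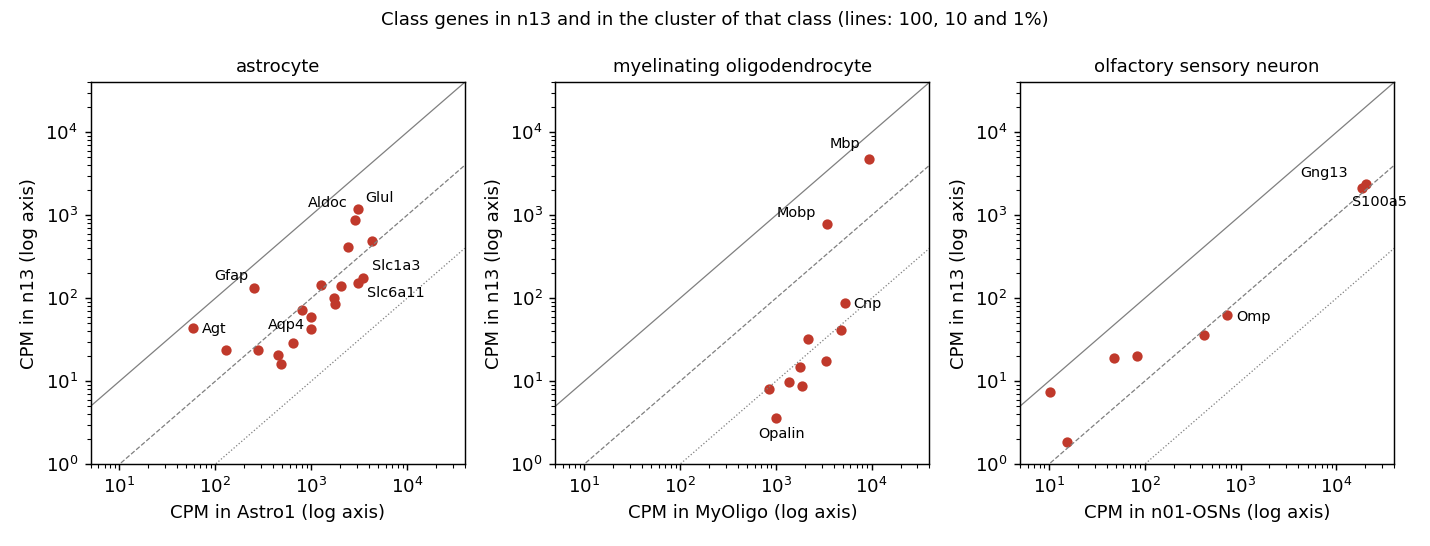
CPM of each gene in n13 (vertical, log axis) against the cluster of its class (horizontal, log axis) for 20 astrocyte genes, 11 of 12 myelin genes and the 8 of 12 olfactory sensory neuron genes above 10 CPM in n01-OSNs and above 0 in n13. The solid, dashed and dotted lines mark 100%, 10% and 1%, and Agt, Gfap, Glul and Aldoc lie nearest the 100% line in the first panel and Mbp and Mobp in the second.

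Genes of metabolism and translation were also above the median type in sum, though not always above every neuronal type. n13 ranked 2 of 18 for the mitochondrial genome and 3 for ribosomal proteins, where n01-OSNs held 408443 and 178851 CPM. For the nuclear respiratory chain it ranked 7, with n12-GC-6 highest at 59173 CPM. It ranked 1 for metallothioneins, lipid carriers and iron storage, with n05-PGC-2 next for metallothioneins at 5420 CPM. All 13 genes of the mitochondrial genome were above the median type in all 6 libraries and took up 299533 ± 16116 CPM against 96305. Of 78 cytosolic ribosomal proteins, 76 were above, with a sum of 129178 ± 6935 CPM against 76541 and 45913 in Astro1. Of 72 respiratory chain genes encoded in the nucleus that reached 10 CPM, 20 were above and 2 below, beside 9.05% and 34.5% of all genes that did, and the list summed to 49377 ± 2909 CPM against 43323. All 3 metallothioneins, which bind zinc and copper, were above and summed to 5695 CPM against 2412 and 17138 in Astro1. Lipid and retinoid carriers gave 9 of 10 above and 22998 ± 4529 CPM against 8392, led by the apolipoprotein Apoe at 7556 CPM in n13 and 31548 in Astro1. The 3 genes of iron storage and transport summed to 7139 CPM, above the 2875 of Astro1. Vesicle release genes gave 1 of 15 above and 8 below, beside 9.05% and 34.5% of all genes. A joint list of early response and heat shock genes summed to 1906 CPM against 2390. Its log2 ratio of -0.34 turned to 0.015 with CPM outside the mitochondrial genome.

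The low level of Malat1 was found in nearly all n13 cells. Malat1 made up under 1% of the nonmitochondrial UMIs in 2739 of 2950 cells (92.8%), with 84.6% to 96.8% over the 6 libraries, and 686 cells held none. The 1% limit was chosen after the levels were seen. The same was true of 96.6% of n01-OSNs cells, 92.2% of n14-GC-7, 85.1% of n18-EPL-IN and 78.1% of n17-M/TC-3, of 37.1% of n16-M/TC-2 and of at most 11.7% of the other types. Among glia it held for 83.1% of Astro3, 91.0% of MicroG3 and 74.6% of OEC3 cells, with median depths of 708.5, 748 and 817 UMIs. Of n06-Transition cells, at 730 UMIs, 0.911% were low in Malat1. Over all annotated cells, 14161 (27.5%) were low in Malat1, and n13 gave 45.3% of the 6049 such neurons. At the other end, 26 n13 cells held 5% Malat1 or more, and 185 lay between 1% and 5%.

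**Figure D4:**
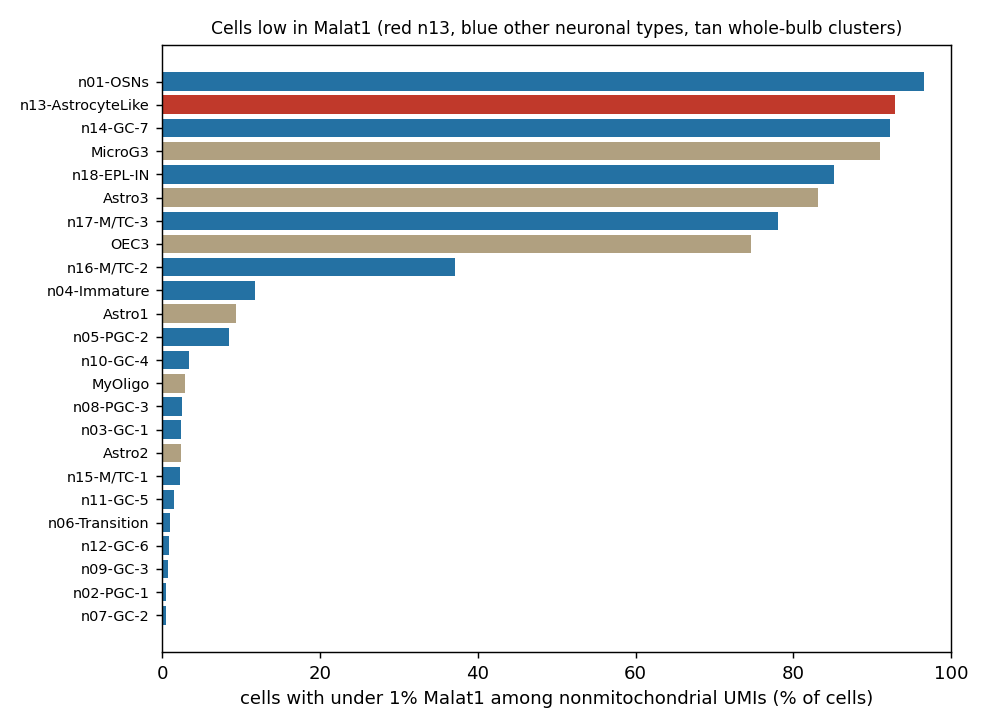
Share of cells (horizontal, %) in which Malat1 is under 1% of the nonmitochondrial UMIs, for the 18 neuronal types and 6 whole-bulb clusters. n13 stands at 92.8% in a group with n01-OSNs, n14-GC-7, MicroG3, n18-EPL-IN, Astro3, n17-M/TC-3 and OEC3, apart from most other types.

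The profile of n13 across genes was compared with the other 39 clusters. Over 3250 genes at 50 CPM or more, the correlation of log2 levels with n13 was highest by both measures for n01-OSNs (Pearson r = 0.945, Spearman rho = 0.921), followed by Astro3 (0.910 and 0.868) and MicroG3 (0.873 and 0.827). n14-GC-7 (0.852 and 0.754) came next by r, while red blood cells, OEC3 and EC2 stood above it by rho. Astro1 gave 0.693 and 0.599. The 6 highest clusters by r, n01-OSNs, Astro3, MicroG3, n14-GC-7, OEC3 and EC2, were all shallow, with medians of 690 to 817 UMIs. Not all shallow clusters ranked high and not all deep ones low, and the part of depth in these correlations was not tested. The cluster n06-Transition at 730 UMIs gave 0.668 and 0.489, n07-GC-2 at 882 UMIs 0.643 and 0.461, and red blood cells at 3894 UMIs 0.840 and 0.796. These correlations run over genes, which are not independent replicates, and all clusters share the same libraries. A thinned n13 cell held UMIs of 3 or 4 of the astrocyte, myelin, olfactory sensory neuron and inhibitory interneuron lists in 77.1% of cases, against 20.7% to 63.5% over the other neuronal types, 62.4% in Astro3 and 28.1% in Astro1.

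n13 was not uniform. With CPM taken over genes outside the mitochondrial genome, the 730 cells with 35% or more mitochondrial UMIs held 12661 ± 3085 CPM of the olfactory sensory neuron list, against 3495 ± 1249 in the 621 cells under 25%. The nuclear noncoding RNA list ran the other way, at 4034 ± 764 and 10137 ± 3613 CPM. Myelin genes were at 9605 ± 1995 and 5915 ± 1186 CPM, and astrocyte genes at 7142 ± 2050 and 4836 ± 1045. The 171 cells from N5 held 20850 ± 8777 CPM of the olfactory sensory neuron list and those from N6 6114 ± 2121. The 103 cells from other neuronal clusters held 27109 CPM of nuclear noncoding RNA against 4828 in those from N6. Both small groups had as few as 8 cells in a library.

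The share of n13 among neurons was set against condition in a quasi-likelihood fit (edgeR) over the 18 types. With 2 pools of mice per condition, all p-values given here cover only spread between these libraries. For edgeR that spread is in part shared over the types or genes tested. n13 made up 15.0% (95% exact interval 13.96% to 16.1%) and 13.4% (12.2% to 14.6%) of neurons in control, 8.45% (7.48% to 9.51%) and 5.89% (5.12% to 6.73%) in occluded, and 23.8% (22.6% to 24.97%) and 7.81% (6.84% to 8.88%) in trained libraries. The intervals cover counting error only. The occluded values lay under both control values, whereas the trained values lay on both sides of them. No difference passed after Benjamini-Hochberg adjustment over the 18 types, with a log2 change of -0.99 ± 0.47 (SE) for occluded against control (edgeR adjusted p = 0.288), 0.16 ± 0.46 for trained against control (edgeR adjusted p = 0.776) and 1.15 for trained against occluded (edgeR adjusted p = 0.0750). Without trained library 1 the change for trained against control was -0.86, and the last comparison passed without occluded library 1 (1.43) or trained library 2 (1.73) and was 0.13 without trained library 1 (edgeR adjusted p = 0.856). It also passed as a share of all annotated cells (1.38, edgeR adjusted p = 0.0225) and with TMM scaling over the 18 types (1.41, edgeR adjusted p = 0.0106). The median depth of the other neurons was 1145 and 1026 UMIs in control, 1452 and 1241 in occluded and 963.5 and 1065 in trained libraries. Among cells of at least 1000 UMIs, the log2 changes in the share were -0.35, -0.10 and 0.25 in the same order of comparisons, with edgeR adjusted p-values of 0.939, 0.913 and 0.936. Median UMIs of n13 cells differed by 6.25 between occluded and control, and the mitochondrial share was 27.1% against 31.4% with no overlap. An exact two-sided permutation test of 2 against 2 libraries cannot fall below p = 0.333. In the other neurons the median mitochondrial share was 10.4% and 8.48% in occluded and 13.4% and 13.7% in control libraries, also with no overlap.

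To ask which genes of n13 follow olfactory experience, UMIs were summed over the n13 cells of each library and 3313 genes tested with edgeR. Between occluded and control libraries 4 genes (0.121%) passed, 3 higher and 1 lower, and 173 had an unadjusted p under 0.05. S100a5, whose level in olfactory sensory neurons is known to depend on odour input, was at 3059 and 3874 CPM in control, 1484 and 874 in occluded and 3129 and 1938 in trained libraries. It fell by 1.56 ± 0.17 on the log2 scale in occluded libraries (SE, edgeR adjusted p = 2.63e-11), with both occluded values under all others. Cells with a UMI of S100a5 made up 78.6% (75.3% to 81.7%) and 75.8% (71.4% to 79.9%) in control and 43.3% (37.1% to 49.6%) and 25.9% (20.0% to 32.5%) in occluded libraries. Over all libraries, 69.1% of n13 cells and 45.5% of MicroG3 cells held such a UMI, at median depths of 656 and 748 UMIs. The edgeR p-values for genes rest mostly on a spread shared over genes, with 103.5 prior and 3 residual degrees of freedom. The spread of S100a5 between replicates was wider, with a residual deviance of 6.86 per degree of freedom against a median of 0.788. Its edgeR adjusted p thus does not measure its own spread alone. DESeq2 gave S100a5 an adjusted p of 0.333 and called 0 genes in this comparison. The count of 4 genes was 25 without occluded library 1 and 2 without occluded library 2, and S100a5 passed without either.

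The same direction of S100a5 was seen outside n13. In n01-OSNs it was at 28031 and 25567 CPM in control and 15027 and 10026 in occluded libraries, in the other 16 neuronal types at 872 and 856 against 346 and 140, and in the 3 Astro clusters at 800 and 866 against 326 and 145. The log2 change was -1.70 ± 0.33 in the other 17 neuronal types (edgeR adjusted p = 0.0804) and -1.86 ± 0.29 in the Astro clusters (edgeR adjusted p = 0.0139). The change in n13 minus that in the other 17 neuronal types was 0.09 ± 0.21 on the log2 scale (SE, edgeR adjusted p = 1), so a difference between them was not detected. Gng13 was at 2259 and 2312 CPM in control, 1832 and 2031 in occluded and 2622 and 1677 in trained n13 cells, and did not pass.

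**Figure D5:**
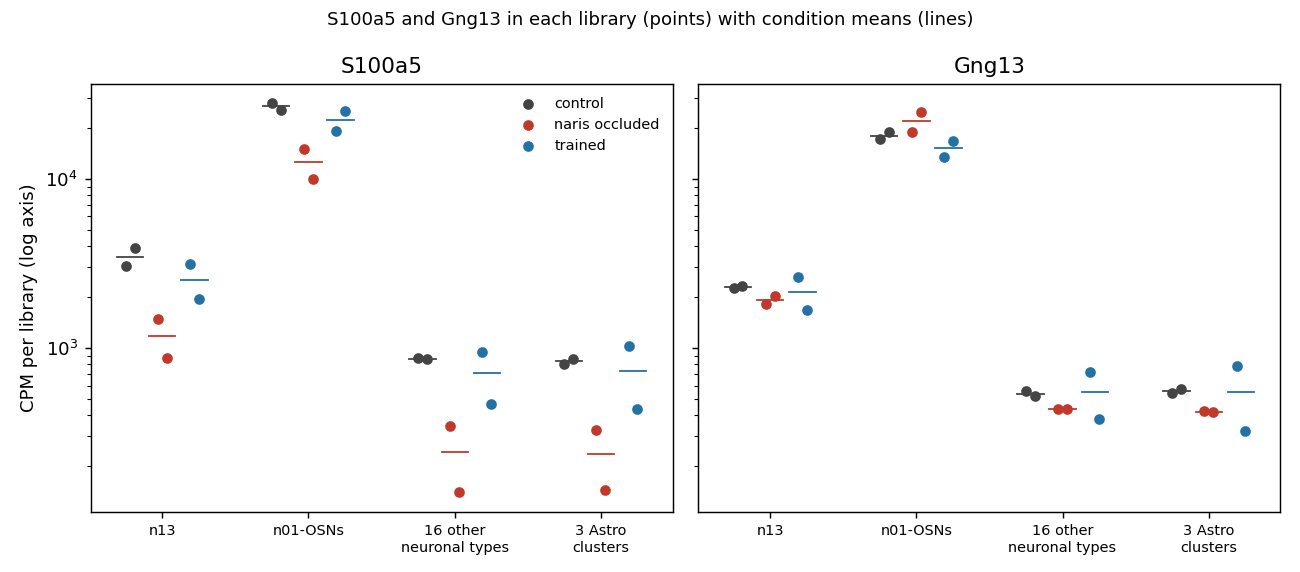
CPM of S100a5 and Gng13 (vertical, log axis) in each library, as points, and the mean of each condition, as lines, in n13, n01-OSNs, the other 16 neuronal types and the 3 Astro clusters. S100a5 is lowest in both occluded libraries in every group of cells, while Gng13 in n13 lies between 1677 and 2622 CPM in all libraries.

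The 3 genes that were higher in occluded libraries were Pf4, a platelet chemokine, with a log2 change of 3.79 ± 0.79 (edgeR adjusted p = 0.00554), Ctla2a, a protease inhibitor, with 2.22 ± 0.40 (edgeR adjusted p = 0.000376), and Cd9, a membrane tetraspanin, with 1.33 ± 0.31 (edgeR adjusted p = 0.0311). Their calls rested on 3 cells that held both Pf4 and Ctla2a, 2 in occluded library 1 and 1 in occluded library 2. In library 2 this cell gave 19 of 20 Pf4 and 26 of 28 Ctla2a UMIs. Without these cells, chosen after the values were seen, S100a5 was the 1 gene that passed.

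No gene passed between trained and control libraries (0% of 3313 by edgeR, with 149 at an unadjusted p under 0.05, 0 by DESeq2 and 3 by edgeR with a robust prior). The 3 genes with the smallest p, none of which passed, were the early response factor Fosl2, the haemoglobin Hbb-bs and the DNA topoisomerase Top1, all with an edgeR adjusted p of 0.0553. Top1 was at 118 and 93.7 CPM in control, 98.6 and 94.5 in occluded and 216 and 215 in trained libraries. S100a5 in trained libraries had a log2 difference of -0.46 from control and did not pass. The count of 0 became 7 without occluded library 1, 6 without occluded library 2, 4 without trained library 2 and 1 without either control library. It was 1 with no filter on low counts.

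Between trained and occluded libraries 15 genes (0.453%) passed, 5 higher and 10 lower in trained, with 236 at an unadjusted p under 0.05. Fosl2 rose by 2.95 ± 0.70 (edgeR adjusted p = 0.0186), from 14.1 and 0 CPM to 69.9 and 71.8 CPM. The early response factor Egr1 rose by 2.09 ± 0.48 (edgeR adjusted p = 0.0144), Top1 by 1.15 ± 0.28 (edgeR adjusted p = 0.0248), S100a5 by 1.10 ± 0.17 (edgeR adjusted p = 8.65e-06) and Cystm1 by 1.10 ± 0.27 (edgeR adjusted p = 0.0248). Fosl2 came from 3 and 0 UMIs in the occluded libraries and 56 and 11 in the trained ones. Egr1 came from 4 and 4 UMIs in the occluded libraries and 94 and 9 in the trained ones. Without trained library 1, S100a5 no longer passed (0.69, edgeR adjusted p = 0.496), nor did it with DESeq2 (adjusted p = 0.998). Among the lower genes were Pf4 and Ctla2a, which rest on the same 3 cells, the haemoglobin genes Hba-a1 with -1.74 ± 0.42 (edgeR adjusted p = 0.0203) and Hbb-bs with -1.61 ± 0.26 (edgeR adjusted p = 1.3e-05), and Tmem243 with -1.73 ± 0.45 (edgeR adjusted p = 0.0430). Tmem243 rested on 15 and 15 UMIs in the occluded libraries and 25 and 1 in the trained ones. The other genes that passed were Ptgds, Calb2, Nnat, Lamp1 and Dbi. Without the 3 cells 11 genes passed, and DESeq2 called 2. The count was 44 without occluded library 1, 9 without occluded library 2 and 3 without trained library 1. In the other 17 neuronal types, Fosl2 (1.72 ± 0.21, edgeR adjusted p = 0.000995), Egr1 (0.91 ± 0.16, edgeR adjusted p = 0.00934) and Hbb-bs (-2.22 ± 0.23, edgeR adjusted p = 0.00038) passed in the same direction. Top1 (0.29 ± 0.11) and Cystm1 (0.38 ± 0.12) did not pass there, and Tmem243 had the other sign (0.26 ± 0.12) and did not pass.

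Few genes of the lists passed between conditions. None of the 15 astrocyte genes tested passed in any comparison, with median log2 changes of 0.21, -0.03 and -0.22 for occluded against control, trained against control and trained against occluded, beside 0.01, -0.00 and -0.01 over all genes. The 6 myelin, 15 pan-neuronal, 13 inhibitory and 3 nuclear noncoding genes tested gave no call either. With 0.121%, 0% and 0.453% of all genes called in the 3 comparisons, counts of 0 in lists of this size do not set them apart. Of 3 sensory neuron genes tested, S100a5 alone passed, in occluded against control and in trained against occluded. The latter comparison also called Egr1 of 7 early response and heat shock genes, and Hbb-bs and Hba-a1 of 3 red blood cell genes. It called Ptgds and Dbi of 10 lipid carriers, Ptgds being also the 1 mesenchymal gene tested.

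A test of the difference between n13 and the other 17 neuronal types was run on 12454 genes. It called Ctla2a alone in occluded against control (0.00803%) and in trained against occluded (0.00803%) and no gene in trained against control (0%), with 460, 516 and 408 genes at an unadjusted p under 0.05. Without the 3 cells named above the Ctla2a difference for occluded against control was 0.28 (edgeR adjusted p = 1) and no gene was called. A difference in response to olfactory experience between n13 and the other neurons was therefore not detected at this depth, with 127036 to 801203 UMIs of n13 cells per library, once the 3 cells were left out.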

How the data were processed

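Single cells of 6 libraries were captured with 10x Chromium 3′ v2 chemistry. The authors deposited UMI counts per gene and cell without normalization, and a mitochondrial fraction of each cell in an annotation of clusters. Per the labels, counts came from Cell Ranger 2.0.0 on mm10 and clusters from Seurat 2.2.1, and the study's methods give a minimum of 200 genes per cell, regression of depth and mitochondrial genes, and removal of doublets. No doublet caller was run here. A deposited table of processed Seurat values was not used. Library was taken from the annotation, since the starts of all 17275 trained cell names name the other trained library. In 226 n13 cells the UMI sum differed from the annotation, and the count table was used. Library totals ranged from 11841160 to 17065083 UMIs.

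The members and gene lists were chosen with earlier results of these data known. Named genes were the 15 highest and 15 lowest log2 ratios of n13 to the median of the other types (same sign in all 6 libraries, at least 100 CPM in n13 or, for the lowest, in that median), and in each contrast the 5 largest passing changes each way with no overlap, or the 3 smallest p where none passed. All list genes could also be named. Of the list genes, Pclaf and Rian were not found in the count table. Counts summed per library were tested with edgeR 4.0.16 (TMM, filterByExpr, quasi-likelihood, Benjamini-Hochberg threshold 0.05) in R 4.3.3, with DESeq2 1.42.0 as an alternative. The fit was tested on simulated data for occluded against control. It recovered 32 of 81 genes with a true log2 change of 1 (39.5%) and 86 of 100 with one of 2, with 4 false calls. The simulated spread followed the fitted trend over genes, so genes with a wider spread, such as S100a5, are not covered. Intervals are exact (Clopper-Pearson). Figures and summaries were made in Python 3.11.15. 1 gene of the myelin list is counted in its sums and not reported here by itself.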

Additional observations from a re-analysis of the deposited data

Results flagged for a closer look

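The change of Ctla2a in n13 differed from that in the other 17 neuronal types by 2.85 ± 0.46 (log2, SE) between occluded and control libraries (edgeR adjusted p = 7.73e-06) and by -3.28 ± 0.50 between trained and occluded libraries (edgeR adjusted p = 4.25e-07). In n13 the occluded libraries held 19 and 28 UMIs of Ctla2a, of which 13 and 26 were in the 3 cells that also held Pf4. Without those cells the differences were 0.28 and -0.71, both with an edgeR adjusted p of 1.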

How the results depend on the processing

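The cells are shallow, few reach 1000 UMIs, and 2 libraries per condition limit every comparison. With cells of at least 1000 UMIs, 6 of the 20 astrocyte genes in place of 17 were above the median type in all 6 libraries, and the oligodendrocyte precursor list turned to -0.092. The count of 110 genes at 100 CPM or more and with a log2 ratio of at least 1 became 236 with CPM outside the mitochondrial genome. There the early response and heat shock list turned to 0.015. Against the 4 types nearest in depth the count was 34, and Gm26699 turned to 0.16. Leaving out 1 library gave 17 to 19 and 108 to 116. The counts of genes called in occluded against control, trained against control and trained against occluded, 4, 0 and 15, became 0, 0 and 2 with DESeq2, 1, 0 and 3 with cells under 30% mitochondrial UMIs, 4, 1 and 8 with no filter on low counts, 5, 3 and 17 with a robust prior, and 1, 0 and 11 without the 3 cells, the last 2 settings chosen after seeing the data. Without 1 library they were 2 to 25, 0 to 7 and 3 to 44. The highest counts came without occluded library 1 and the lowest in trained against occluded without trained library 1, which left S100a5 at 0.69 (edgeR adjusted p = 0.496). The interaction counts of 1, 0 and 1 became 0, 0 and 0 without the 3 cells and 1, 0 and 2 against the pooled Astro clusters.

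The replicate block gave 5, 3 and 18 calls. Same-numbered libraries share a sex but not mice, and their deviations correlated at 0.096, 0.071 and 0.061, so the numbers were not taken to pair them. Under the block the share in trained against control was -0.012, and with cells of at least 1000 UMIs the 3 share changes were -0.35, -0.10 and 0.25. A chi-square test on pooled cells, which counts cells as replicates, gave -1.02, 0.34 and 1.35. The share in trained against occluded passed out of all annotated cells (1.38) and with TMM (1.41). Without 1 library the 3 share changes ranged from -1.27 to -0.75, from -0.86 to 0.74 and from 0.13 to 1.73, turning negative in trained against control without trained library 1.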
